A study of Mus musculus with 6 samples.

Results

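Potassium channel genes were followed in the embryonic mouse lateral ganglionic eminence (LGE), the primordium of the striatum, with and without forced *Sp9* expression. The members are the protein-coding genes whose symbol starts with *Kcn*, and 62 of the 15168 listed genes met this rule, out of 13514 listed protein-coding genes. Another 2 listed *Kcn* symbols, *Kcnq1ot1* and *Kcnmb4os2*, are non-coding and were left out. By type of channel, 27 members encode voltage-gated channel subunits, 8 encode inward rectifiers (*Kcnj*), 7 encode two-pore channels (*Kcnk*) and 20 fall in other families. Those 20 are 7 channels of the calcium- or sodium-activated families, 2 electrically silent subunits of the *Kcns* and *Kcnv* families (*Kcns2* and *Kcnv1*) and 11 accessory or regulatory subunits (*Kcnab*, *Kcne*, *Kcnip*, *Kcnmb*, *Kcnrg*). The silent subunit genes *Kcnf1* and *Kcng1* were counted among the 27 voltage-gated members, as their symbols fall in that range.

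Bulk RNA-seq was performed on LGE dissected at E16.5, with 3 libraries of *Dlx5/6-CIE; Rosa-Sp9-OE/+* embryos (Sp9-OE below) and 3 of *Dlx5/6-CIE* littermates (controls). Both groups carry the *Dlx5/6-CIE* driver, a Cre-IRES-EGFP transgene active in LGE progenitors, and the Sp9-OE group also carries 1 copy of an *Sp9* coding sequence at *Rosa26*, behind a CAG promoter and a LacZ-STOP cassette that Cre removes. The mice were of mixed C57BL/6J, 129S6 and CD1 background. The methods give at least 3 animals per experiment, though no label ties a library to its own embryo, and the p-values cover the spread between these libraries.

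Potassium channels let potassium ions leave the cell and thereby hold the resting potential and end action potentials. Voltage-gated channels open on depolarization, inward rectifiers and two-pore channels pass current near the resting potential, and calcium- or sodium-activated channels couple firing to ion entry. Medium spiny neurons (MSNs), the projection neurons of the striatum, are known for strong inward rectification and for A-type voltage-gated currents, whereas glia, microglia and pericytes each use channels of their own.

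Libraries held 19410365 to 25126847 reads in listed genes, and levels are given as CPM, the reads of a gene multiplied by a factor of its library. Listed genes summed to 1014636 CPM in the third Sp9-OE library and to 965678 to 984457 CPM in the others. Scaling to the library's total alone cannot give the first of these sums, so the deposited CPM hold a further scaling. Its kind was not tested. *Sp9* itself was at 178, 268 and 305 CPM in Sp9-OE LGE, against 130, 147 and 170 CPM in controls, so every Sp9-OE library was above every control, at a log2 difference of 0.72 (limma, SE 0.19, adjusted p = 0.788). Transcripts of the added coding sequence and of the native gene cannot be told apart in these values. *Xist*, the RNA of the inactive X chromosome, was at 1.37 to 2.33 CPM in the 3 Sp9-OE libraries, against 2227, 2191 and 2.35 CPM in controls 1, 2 and 3, so only control 3 matched the Sp9-OE libraries in *Xist*, and sex and genotype cannot be fully told apart. Markers of MSNs were listed for 8 of 8 genes, summing to 2315, 2479 and 3067 CPM in Sp9-OE LGE, against 2437, 1955 and 2176 CPM in controls. Control 1 and the third Sp9-OE library stood apart in other marker lists, as given below beside the members they touch.

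All 62 members were detected in every library and passed the filter on low values (0.5 CPM in at least 3 libraries). Nearly all listed genes were detected, 15137 to 15146 of 15168 in each library. Any *Kcn* gene that is not listed is outside these counts. The lowest single value was 0.501 CPM, or 10 reads, for *Kcnj14* in control 1. Levels of different genes were compared per kilobase of annotated exon length (CPM per kb). On that scale the 62 members summed to 197, 193 and 194 in Sp9-OE libraries, against 201, 186 and 187 in controls, and the groups overlapped. Voltage-gated members held 45.9% of this sum over the 6 libraries, the other families 35.5%, two-pore channels 10.4% and inward rectifiers 8.30%.

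**Figure D1:**
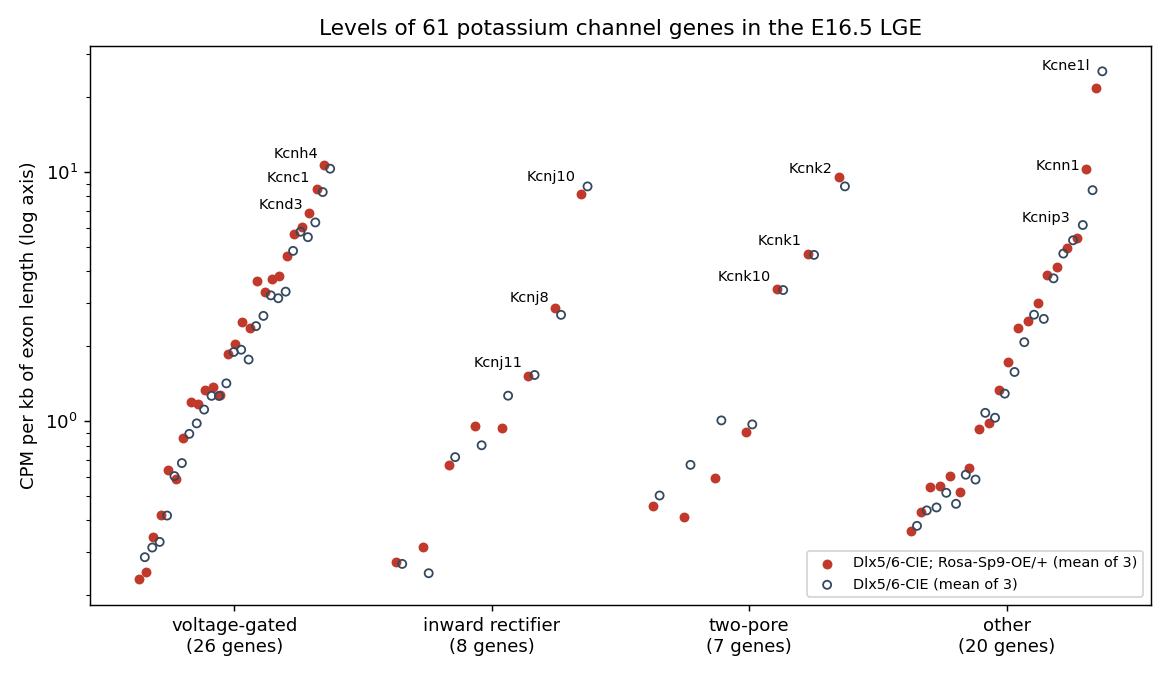
Level of 61 of the 62 members as CPM per kb of exon length (log axis), by class of channel and ordered by level within a class. Filled circles are means of 3 Sp9-OE libraries and open circles means of 3 controls; *Kcne1l* lies highest of those drawn, and within most members the paired circles lie close together.

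No member passed an adjusted p under 0.05 from limma, against 0.0265% of all 15102 genes tested. edgeR's quasi-likelihood test and DESeq2, both run on whole reads recovered from the CPM values, called 0 of the 62 as well, beside 0.0331% and 0.225% of all genes. At an unadjusted p under 0.05, limma found 2 members higher in Sp9-OE LGE, *Kcna3* and *Kcnh8*, and 0 lower, beside 2.68% of all genes higher, 2.84% lower and 5.52% in either direction. Both count models also had 2 members higher and 0 lower at an unadjusted p under 0.05, beside 5.27% (edgeR) and 4.67% (DESeq2) of all genes in either direction. In 6 members the groups did not overlap, 2 higher (*Kcna3*, *Kcnh8*) and 4 lower (*Kcnh5*, *Kcnh7*, *Kcnk6*, *Kcnk13*), beside 5.46% of all genes higher, 5.73% lower and 11.2% in either direction. The largest differences were 0.47 for *Kcnh8* and -0.77 for *Kcnk6* on the log2 scale, and the median of the absolute difference was 0.12, beside 0.09 over all genes tested. These differences are of log2(CPM + 0.5), which understates the change of low genes.

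**Figure D2:**
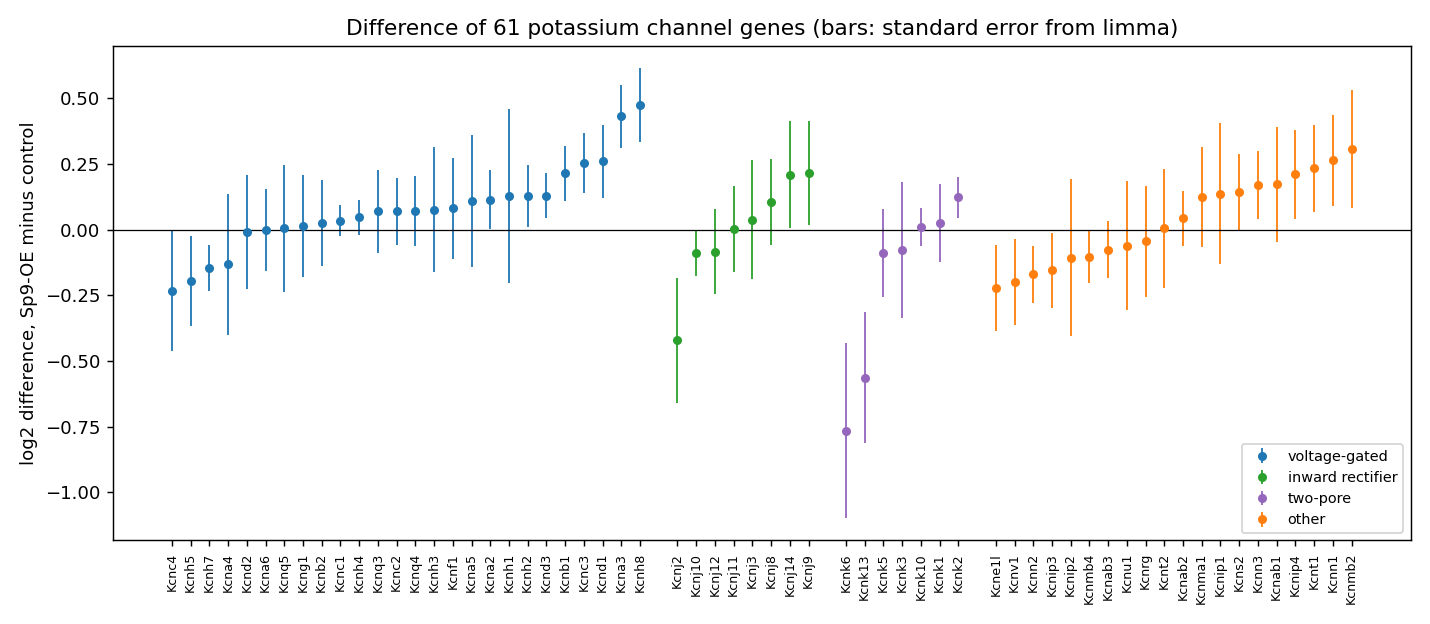
Difference in log2(CPM + 0.5), Sp9-OE minus control, for 61 of the 62 members, by class of channel. Points are limma estimates from 3 libraries a group and bars their standard errors; *Kcnh8* and *Kcna3* lie highest at 0.47 and 0.43, *Kcnk6* and *Kcnk13* lowest at -0.77 and -0.56, and 0 members passed the adjusted threshold.

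Among voltage-gated channels, *Kcnh4*, of the ether-a-go-go-like family, was at 10.7 CPM per kb in Sp9-OE LGE and 10.3 in controls. *Kcnc1*, whose Kv3.1 channels serve fast firing, was at 8.54 CPM per kb in Sp9-OE LGE and 8.33 in controls. For both the groups overlapped, with log2 differences of 0.05 (SE 0.07) for *Kcnh4* and 0.03 (SE 0.06) for *Kcnc1*. *Kcnq3*, taken up after its values were seen, averaged 48.8 ± 5.10 CPM in Sp9-OE LGE and 47.2 ± 11.7 CPM in controls (SD, n = 3 each).

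*Kcna3* and *Kcnh8* were the 2 voltage-gated members whose Sp9-OE libraries all lay above the controls. *Kcna3* encodes Kv1.3, best known from T cells and microglia, and was at 6.80, 6.59 and 7.56 CPM in Sp9-OE LGE, against 5.36, 4.97 and 4.79 CPM in controls. The groups were separated by more than the range within either, and the log2 difference was 0.43 (SE 0.12, unadjusted p = 0.00698, adjusted p = 0.788, limma). These values rest on 147 to 174 reads per Sp9-OE library and 100 to 108 reads per control. *Kcnh8*, another ether-a-go-go-like gene, was at 11.8, 9.45 and 13.2 CPM in Sp9-OE LGE, against 7.62, 7.71 and 8.88 CPM in controls. The lowest Sp9-OE library was just above the highest control, and the log2 difference was 0.47 (SE 0.14, unadjusted p = 0.0101, adjusted p = 0.788, limma). Against control 3 alone, the control that matched in *Xist*, the unadjusted p was 0.0277 for *Kcna3*, at a log2 difference of 0.50, and 0.151 for *Kcnh8*, at 0.34. With *Xist* as a covariate the same differences were 0.50 (unadjusted p = 0.0289) and 0.33 (unadjusted p = 0.156). Since *Xist* was high only in controls 1 and 2, this fit nearly repeats the comparison with control 3. Here and below it is not a separate check.

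SP9 belongs to the Sp family of zinc-finger proteins, whose members are known to bind GC-rich boxes, so the 250 bases before the annotated start of these 2 genes are shown (RefSeq, GRCm38.p6, both on the plus strand). Capitals mark each GC box, GGGCGG or its reverse complement CCGCCC, searched on both strands. The windows lie at chr3:107035912-107036161 for *Kcna3* and chr17:52602459-52602708 for *Kcnh8*.
Kcna3: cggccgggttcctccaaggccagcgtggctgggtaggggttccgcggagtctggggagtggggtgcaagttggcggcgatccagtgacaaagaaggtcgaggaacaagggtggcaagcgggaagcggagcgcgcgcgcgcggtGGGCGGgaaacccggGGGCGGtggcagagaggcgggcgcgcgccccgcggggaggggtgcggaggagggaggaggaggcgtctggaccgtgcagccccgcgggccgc
Kcnh8: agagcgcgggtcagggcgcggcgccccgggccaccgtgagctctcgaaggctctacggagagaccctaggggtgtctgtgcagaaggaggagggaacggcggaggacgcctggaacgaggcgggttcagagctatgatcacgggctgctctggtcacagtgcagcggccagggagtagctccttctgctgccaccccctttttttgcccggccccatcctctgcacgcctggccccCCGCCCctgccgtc
The *Kcna3* window held 2 boxes and the *Kcnh8* window 1, and their GC contents were 74.4% and 68.4%. Over the table, 43 of the 62 members matched, with 61 windows, of which 26 (42.6%) held a GC box, beside 32.7% of all 32851 windows of the same length. A match of these letters is a description and not a binding site.

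Of all 27 voltage-gated members, 21 were higher by value in Sp9-OE LGE, with a median log2 difference of 0.07, beside 50.2% of genes higher and a median of 0.00 over all genes tested. This count changed with the libraries entered: it was 12 of 27 without control 2, with a median of -0.01, 15 of 27 without control 3 and likewise without the first Sp9-OE library, with medians of 0.03 and 0.01, and 24 of 27 without control 1, with a median of 0.25. Summed over the class, the level was 91.2, 88.9 and 95.2 CPM per kb in Sp9-OE libraries, against 98.1, 77.0 and 80.6 in controls. The Sp9-OE libraries therefore lay between control 1 and the other 2 controls. Control 2 was the lowest library for 13 of the 27 members, and it also had the lowest sum of MSN markers (1955 CPM) and the highest sum of 8 radial glia markers, at 2628 CPM in control 2, 2224 and 2541 CPM in controls 1 and 3, and 2055 to 2342 CPM in Sp9-OE libraries. The part of these cell types in the class sum was not tested, and in bulk tissue fewer cells of a type and less RNA per cell cannot be told apart.

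The 3 A-type subunits of the Kv4 family are described here after their values were seen, because of their place in MSNs. *Kcnd3* was at 66.5, 69.3 and 62.0 CPM in Sp9-OE LGE, against 67.4, 58.6 and 55.0 CPM in controls. *Kcnd2* was at 23.1, 22.9 and 25.3 CPM in Sp9-OE LGE, against 35.8, 19.8 and 19.2 CPM in controls. For both genes the groups overlapped through control 1, which was the highest control. X-linked *Kcnd1* was at 6.29, 6.99 and 5.66 CPM in Sp9-OE LGE, against 5.71, 4.53 and 5.33 CPM in controls, an overlap of 1 control and 1 Sp9-OE library. The log2 differences were 0.13 (SE 0.08) for *Kcnd3*, -0.01 (SE 0.22) for *Kcnd2* and 0.26 (SE 0.14) for *Kcnd1*, with limma adjusted p values of 0.789, 0.994 and 0.788.

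*Kcnh5* and *Kcnh7*, also taken up after their values were seen, were the voltage-gated members whose Sp9-OE libraries all lay below the controls. *Kcnh5*, of the ether-a-go-go family, was at 0.938, 0.941 and 0.950 CPM in Sp9-OE LGE, against 1.20, 1.24 and 1.02 CPM in controls, and its log2 difference was -0.20 (SE 0.17, adjusted p = 0.819, limma). It rests on 24, 21 and 21 reads in Sp9-OE libraries and 24, 25 and 23 reads in controls, so a few reads decide the overlap. *Kcnh7*, of the Erg family, was at 19.7, 19.8 and 18.9 CPM in Sp9-OE LGE, against 20.7, 20.2 and 24.0 CPM in controls, a log2 difference of -0.15 (SE 0.09, adjusted p = 0.788, limma). The gaps were narrow beside the spread of the controls. Exons of *Kcnh7* overlap those of *Gca* on the opposite strand.

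Inward rectifiers were led by *Kcnj10*, the glial channel Kir4.1, at 8.22 CPM per kb in Sp9-OE LGE and 8.78 in controls. It was at 46.3, 44.2 and 42.9 CPM in Sp9-OE libraries, against 41.5, 49.8 and 51.2 CPM in controls. The groups overlapped through control 1, the lowest of all 6, at a log2 difference of -0.09 (SE 0.09, adjusted p = 0.830, limma). Without control 1 it was -0.18 (unadjusted p = 0.0216), and without control 3 it was -0.03.

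*Kcnj8* encodes Kir6.1, the pore of ATP-sensitive channels in pericytes and vascular smooth muscle, where it pairs with the sulfonylurea receptor encoded by *Abcc9*. It was at 7.34, 7.75 and 6.74 CPM in Sp9-OE LGE, against 7.17, 8.06 and 5.24 CPM in controls. Both ends of the range were controls, and the log2 difference was 0.11 (SE 0.16, adjusted p = 0.885, limma). With *Xist* as a covariate it was 0.45 (unadjusted p = 0.0382), and against control 3 alone, the lowest of the 6 libraries, it was 0.44 (unadjusted p = 0.0408), neither past the adjusted threshold, whereas without control 3 it was -0.06. *Abcc9* averaged 23.8 ± 2.93 CPM in Sp9-OE LGE and 21.7 ± 2.38 CPM in controls (SD, n = 3 each), a log2 difference of 0.12 (SE 0.12, adjusted p = 0.821, limma). The 10 pericyte and mural markers, which include both genes, were all listed and summed to 285, 278 and 266 CPM in Sp9-OE LGE, against 263, 288 and 307 CPM in controls, with overlap. *Kcnj8* lies on chromosome 6 (142564837 to 142571614, GRCm38), 29.5 Mb from the *Gt(ROSA)26Sor* gene that marks the modified locus. The other ATP-sensitive pore, *Kcnj11* or Kir6.2, averaged 5.58 ± 0.306 CPM in Sp9-OE LGE and 5.65 ± 1.17 CPM in controls (SD, n = 3 each), and its receptor subunit gene *Abcc8* averaged 4.42 ± 0.0959 CPM in Sp9-OE LGE and 4.55 ± 1.15 CPM in controls. Differences were 0.00 (SE 0.16) for *Kcnj11* and -0.02 (SE 0.17) for *Abcc8* on the log2 scale, and for *Kcnj11* 0.33 (unadjusted p = 0.111) against control 3 alone.

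The 5 other inward rectifiers were at 1.27 CPM per kb or less in both groups. *Kcnj2*, the classical inward rectifier Kir2.1, had the largest difference of the class and was chosen after its values were seen: it was at 6.25, 5.69 and 3.39 CPM in Sp9-OE LGE, against 5.31, 7.76 and 7.64 CPM in controls. The third Sp9-OE library was the lowest and control 1 lay among the Sp9-OE values, so the groups overlapped, at a log2 difference of -0.42 (SE 0.24, adjusted p = 0.788, limma). *Kcnj3* and *Kcnj9*, G-protein-gated Kir3 subunits, averaged 1.42 ± 0.251 and 4.11 ± 1.02 CPM in Sp9-OE LGE, against 1.40 ± 0.465 and 3.44 ± 0.629 CPM in controls (SD, n = 3 each). The Kir2 gene *Kcnj12* differed by -0.08 (SE 0.16) and *Kcnj14* by 0.21 (SE 0.20) on the log2 scale. Of the 8 inward rectifiers, 5 were higher by value, and 0 had an unadjusted or adjusted p under 0.05 (limma) with all 6 libraries entered.

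**Figure D3:**
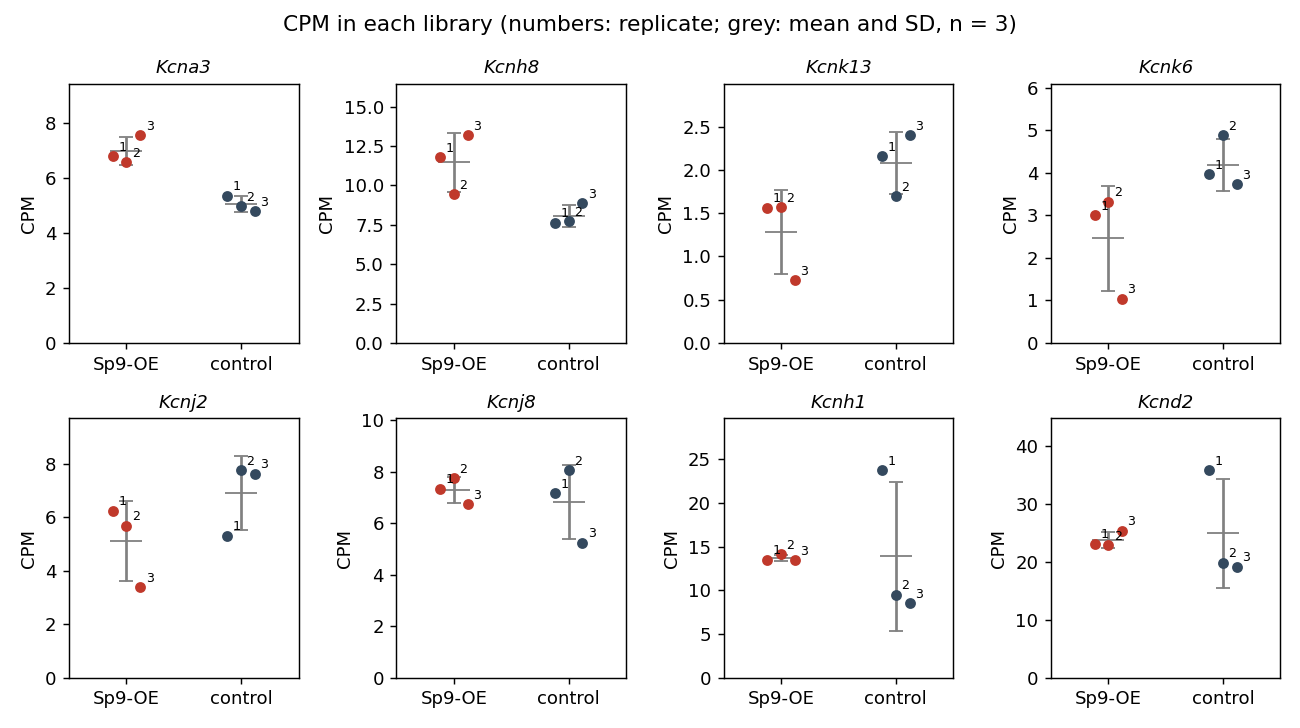
CPM in each library for 8 members, with Sp9-OE left of control; numbers give the replicate and grey lines the mean and SD of 3 libraries. *Kcna3* and *Kcnh8* lie higher and *Kcnk13* and *Kcnk6* lower in all Sp9-OE libraries, the third Sp9-OE library is lowest for *Kcnk13*, *Kcnk6* and *Kcnj2*, and control 1 lies apart for *Kcnh1* and *Kcnd2*.

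Two-pore channels were led by *Kcnk2*, the mechanically and thermally gated channel TREK-1, at 44.1, 50.8 and 47.1 CPM in Sp9-OE LGE, against 46.6, 40.8 and 42.8 CPM in controls. The groups overlapped, at a log2 difference of 0.12 (SE 0.08, adjusted p = 0.789, limma). *Kcnk1* (TWIK-1) averaged 10.5 ± 1.06 CPM in Sp9-OE LGE and 10.4 ± 1.86 CPM in controls, and *Kcnk10* (TREK-2) 29.7 ± 0.421 CPM in Sp9-OE LGE and 29.6 ± 1.99 CPM in controls (SD, n = 3 each). Their log2 differences were 0.03 (SE 0.15) and 0.01 (SE 0.07).

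*Kcnk6* and *Kcnk13* lay below the controls in all 3 Sp9-OE libraries. *Kcnk13*, the halothane-inhibited channel THIK-1 that sets the resting potential of microglia, was at 1.56, 1.57 and 0.724 CPM in Sp9-OE LGE, against 2.16, 1.69 and 2.40 CPM in controls. *Kcnk6* (TWIK-2) was at 3.01, 3.32 and 1.04 CPM in Sp9-OE LGE, against 3.96, 4.88 and 3.73 CPM in controls. In both genes the third Sp9-OE library was by far the lowest, with 16 reads of *Kcnk13* and 23 of *Kcnk6*. The log2 differences were -0.56 (SE 0.25, unadjusted p = 0.0537, adjusted p = 0.788, limma) for *Kcnk13* and -0.77 (SE 0.33, unadjusted p = 0.0503, adjusted p = 0.788, limma) for *Kcnk6*. Without the third Sp9-OE library they were -0.31 (unadjusted p = 0.160) and -0.35 (unadjusted p = 0.0794).

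The same library was low in microglia markers. All 8 markers of the list were above 0 in every library, and they summed to 306, 235 and 86.6 CPM in Sp9-OE LGE, against 286, 370 and 332 CPM in controls. The third Sp9-OE library was the lowest for 8 of 8 markers, and 8 of 8 were lower by value, with log2 differences of -1.07 to -0.57 and 0 past the adjusted threshold. *Cx3cr1*, the fractalkine receptor, was at 54.3, 35.8 and 12.9 CPM in Sp9-OE LGE, against 48.8, 70.4 and 69.2 CPM in controls. *Kcnk13*, *Kcnk6* and *Kcnj2* had their lowest value in the same library and *Kcna3* its highest. It was the lowest library for 11 members (17.7%), beside 24.4% of all genes tested, and also for 6 of 6 oligodendrocyte precursor markers and 5 of 8 radial glia markers. The oligodendrocyte precursor markers summed to 111, 92.9 and 83.0 CPM in Sp9-OE LGE, against 116, 114 and 104 CPM in controls. The part of these cell types in the levels of the 3 members was not tested.

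The windows of 250 bases before the starts of *Kcnk13* (chr12:99964249-99964498) and *Kcnj2* (chr11:111065914-111066163), both on the plus strand, are shown with the same capitals. The groups of *Kcnj2* overlapped, and windows of *Kcnh5* and *Kcnh7*, which lay lower without overlap, are not shown. These 2 windows and those of the 2 higher genes therefore do not compare higher with lower genes on like terms.
Kcnk13: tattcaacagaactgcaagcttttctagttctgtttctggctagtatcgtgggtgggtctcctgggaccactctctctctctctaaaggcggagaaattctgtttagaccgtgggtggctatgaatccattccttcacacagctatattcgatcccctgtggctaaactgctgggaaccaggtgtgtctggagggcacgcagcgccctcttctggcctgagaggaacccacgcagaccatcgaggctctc
Kcnj2: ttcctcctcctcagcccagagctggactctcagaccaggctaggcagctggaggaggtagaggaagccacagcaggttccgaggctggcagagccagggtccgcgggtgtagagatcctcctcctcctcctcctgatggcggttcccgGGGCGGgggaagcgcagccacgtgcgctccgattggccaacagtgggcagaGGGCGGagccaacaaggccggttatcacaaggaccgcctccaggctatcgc
The *Kcnk13* window held 0 GC boxes at a GC content of 52.8%, and the *Kcnj2* window held 2 at 65.6%. *Kcnk6* had no window in the table.

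Among the other families, the accessory subunit gene *Kcne1l*, on the X chromosome, had a high level per length, at 21.9 CPM per kb in Sp9-OE LGE and 25.4 in controls. It was at 40.1, 34.4 and 26.8 CPM in Sp9-OE LGE, against 32.1, 44.4 and 41.3 CPM in controls, and the groups overlapped at a log2 difference of -0.22 (SE 0.16, adjusted p = 0.799, limma). *Kcnn1*, a small-conductance calcium-activated (SK) channel, was at 36.9, 45.7 and 59.4 CPM in Sp9-OE LGE, against 34.8, 35.9 and 46.0 CPM in controls. Its highest value was in the third Sp9-OE library and control 3 lay within the Sp9-OE range, at a log2 difference of 0.26 (SE 0.17, adjusted p = 0.794, limma). The third Sp9-OE library also had the highest sums of MSN markers (3067 CPM) and of 8 D2-MSN markers, which were 838, 972 and 1222 CPM in Sp9-OE LGE, against 703, 596 and 691 CPM in controls. The D2-MSN list includes the forced gene *Sp9* itself, at 178, 268 and 305 CPM in Sp9-OE LGE. In controls *Sp9* was at 130, 147 and 170 CPM, so the D2-MSN sum is not independent of the design. The part of these cell types in the *Kcnn1* value was not tested. The *Kcnn1* difference was 0.09 without that library, 0.43 (unadjusted p = 0.0258) without the first Sp9-OE library, 0.39 without control 3 and 0.01 against control 3 alone.

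The SK gene *Kcnn3* averaged 24.8 ± 4.61 CPM in Sp9-OE LGE and 21.7 ± 0.950 CPM in controls, and *Kcnma1*, the pore of large-conductance (BK) channels, 9.35 ± 0.184 CPM in Sp9-OE LGE and 8.77 ± 2.74 CPM in controls (SD, n = 3 each). The sodium-activated channel gene *Kcnt1* was at 29.6, 27.9 and 27.2 CPM in Sp9-OE LGE, against 32.3, 20.8 and 20.4 CPM in controls, so the Sp9-OE values lay between control 1 and the other 2 controls. *Kcnip3*, a calcium-binding partner of Kv4 channels, averaged 19.3 ± 1.43 CPM in Sp9-OE LGE and 21.8 ± 4.10 CPM in controls (SD, n = 3 each), at a log2 difference of -0.16 (SE 0.14, adjusted p = 0.820, limma). It was -0.32 (unadjusted p = 0.00986) without control 1 and -0.06 without control 3. In this class 11 of 20 members were higher by value and 9 lower, with a median log2 difference of 0.02 and 0 at an unadjusted p under 0.05.

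Control libraries differed from one another across many of the 62 members. Control 1 was the highest of the 6 libraries for 28 members (45.2%), beside 17.8% of all genes tested, and control 3 was the lowest for 21 (33.9%), beside 13.7%. In 16 members (25.8%) control 1 exceeded the mean of controls 2 and 3 by more than 1.5 times, beside 5.40% of all genes. The median of this ratio was 1.20 over the members and 0.99 over all genes. The genes of this paragraph and the next, other than *Kcnip2* and *Kcnip3*, were chosen after their values were seen.

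*Kcnh1*, the ether-a-go-go channel Eag1, had the largest ratio, 2.64, at 13.5, 14.1 and 13.4 CPM in Sp9-OE LGE, against 23.8, 9.50 and 8.52 CPM in controls. The 3 Sp9-OE libraries agreed closely and fell between control 1 and the other controls. *Kcnip2* was at 3.83, 2.78 and 3.08 CPM in Sp9-OE LGE, against 6.02, 2.34 and 2.93 CPM in controls, a ratio of 2.28. *Kcnip1* was at 8.83, 7.80 and 8.28 CPM in Sp9-OE LGE, against 12.5, 5.87 and 5.68 CPM in controls, a ratio of 2.16. Both encode partners of Kv4 channels, and *Kcnd2*, a Kv4 pore gene, had a ratio of 1.84. The other *Kcnip* and *Kcnd* members did not share this: ratios were 0.71 for *Kcnip3*, 0.97 for *Kcnip4*, 1.19 for *Kcnd3* and 1.16 for *Kcnd1*. *Kcna5* and *Kcna4*, of the Shaker family, had ratios of 2.03 and 1.99, *Kcnk3* (TASK-1) 1.94 and *Kcnq5*, of the Kv7 family, 1.90. For the 8 members with the largest ratios, from *Kcnh1* to *Kcnd2*, the 3 Sp9-OE libraries lay below control 1.

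**Figure D4:**
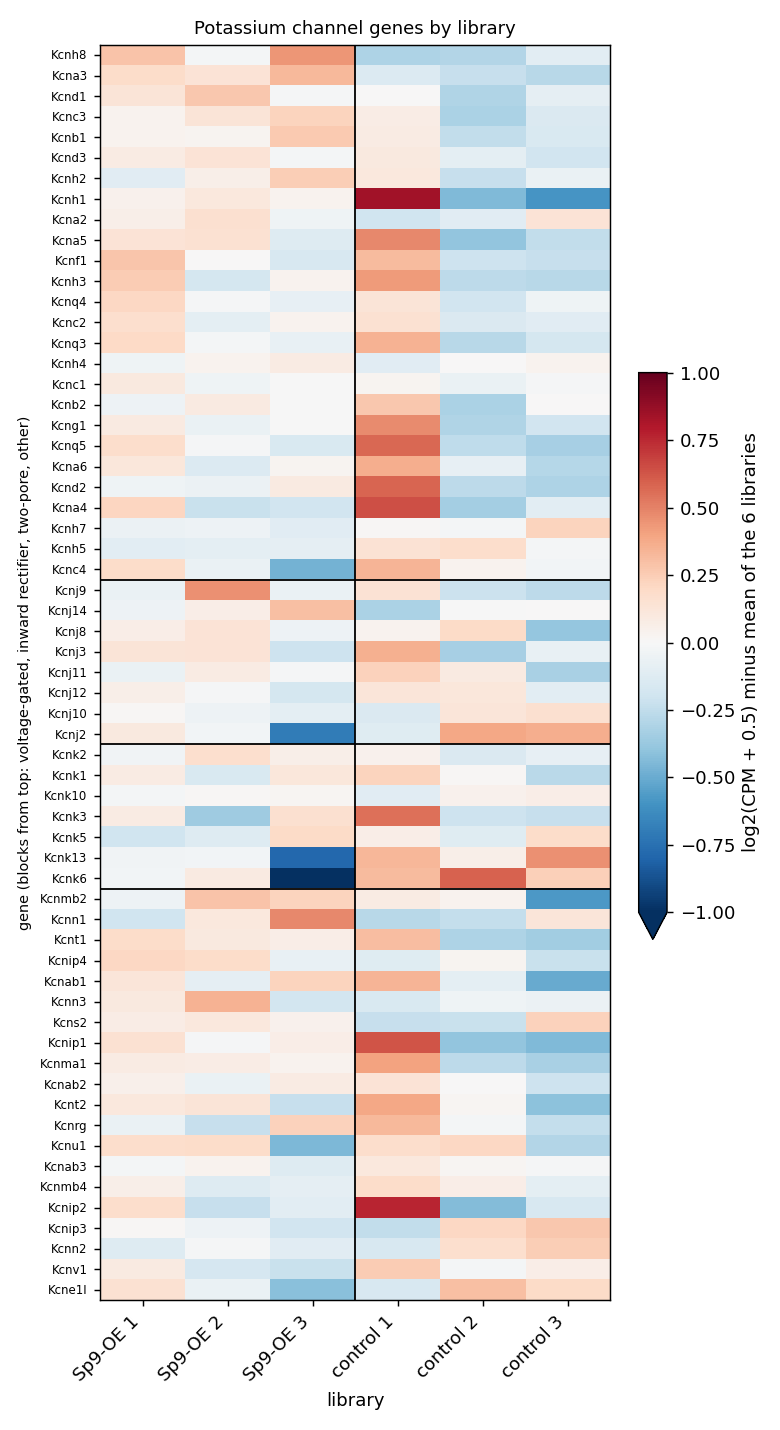
The members by library (61 of 62 drawn), as log2(CPM + 0.5) minus the gene's mean over the 6 libraries, in blocks by class and ordered by difference within a block. Red is higher and blue lower; control 1 is the highest library for 28 members, the darkest blue cell of the third Sp9-OE library belongs to *Kcnk6* and is below the end of the colour scale.

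Control 1 was also high in markers of pyramidal neurons, the glutamatergic neurons of the neighbouring cortex. All 8 of 8 were listed, above 0 in every library, and highest in control 1. Their sum was 56.4, 54.3 and 40.5 CPM in Sp9-OE LGE, against 114, 59.4 and 18.9 CPM in controls 1, 2 and 3. *Neurod2*, which drives this neuronal type, was at 11.2, 11.5 and 6.92 CPM in Sp9-OE LGE, against 23.8, 11.1 and 1.78 CPM in controls. Among D1-MSN markers, 5 of 7 were highest in control 1, and all 7 summed to 360, 364 and 420 CPM in Sp9-OE LGE, against 445, 365 and 364 CPM in controls. The other 2, *Ebf1* and *Isl1*, were highest in the third Sp9-OE library. By value 6 of the 7 were lower in Sp9-OE LGE, and 2 (*Drd1* and *Sfxn1*) without overlap, beside 5.73% of all genes. *Drd1* was at 2.15, 3.00 and 3.49 CPM in Sp9-OE LGE, against 15.7, 7.02 and 8.35 CPM in controls. *Tac1*, which encodes the precursor of substance P, was at 15.8, 13.0 and 12.5 CPM in Sp9-OE LGE, against 38.7, 12.2 and 13.8 CPM in controls. *Ppp1r1b*, the gene of DARPP-32 from the list of both MSN types, was at 23.5, 21.9 and 20.9 CPM in Sp9-OE LGE, against 32.0, 9.60 and 9.77 CPM in controls. It was not typical of that list: of its 8 markers, 2 were highest in control 1 and 6 in the third Sp9-OE library. Control 3, the lowest of the 6 libraries for 21 members, was the lowest for 7 of the 8 pyramidal markers. The part of these cell types in the levels of the potassium channel genes was not tested.

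**Figure D5:**
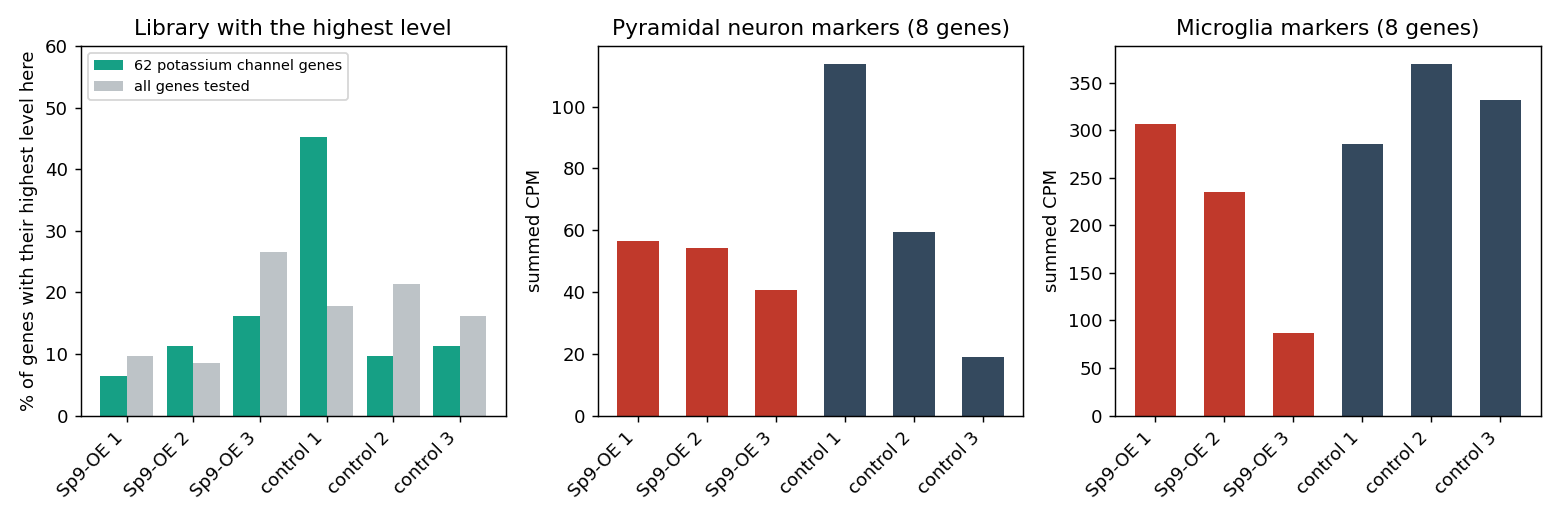
Left, share of the 62 members and of all 15102 genes tested that had their highest level in each library; middle and right, summed CPM of 8 pyramidal neuron markers and of 8 microglia markers in each library. Control 1 is the highest library for 45.2% of members and has the largest pyramidal sum, 114 CPM, and the third Sp9-OE library has the smallest microglia sum, 86.6 CPM.

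Counts of members moved most without control 1. In that fit, 12 members were higher and 4 lower at an unadjusted p under 0.05, beside 7.41% and 6.00% of all genes, and 0 passed the adjusted threshold. Groups then did not overlap in 32 of the 62 members, beside 34.2% of all genes. Against control 3 alone, 10 members were higher and 3 lower at an unadjusted p under 0.05, beside 3.64% and 2.82% of all genes, and again 0 passed after adjustment. With *Xist* as a covariate, 5 members were higher and 1 lower, beside 1.83% and 1.78% of all genes. The number of members higher by value was 40 of 62 with all libraries, 31 without the first Sp9-OE library, 40 without either of the other 2, 46 without control 1, 30 without control 2 and 26 without control 3.

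On chromosome 6, which carries the modified *Rosa26* locus, lie *Kcnj8* and 3 voltage-gated members, *Kcna5*, *Kcna6* and *Kcnd2*, between 13.5 and 91.3 Mb away. In all 4 the groups overlapped. The gene at the locus, *Gt(ROSA)26Sor*, was at 23.0, 23.2 and 23.1 CPM in Sp9-OE LGE, against 11.8, 13.3 and 14.2 CPM in controls.

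Partners of the channels outside the *Kcn* symbols were taken from a list of 23 proteins that assemble with or anchor them, of which 20 were listed. By value 11 were higher and 9 lower in Sp9-OE LGE, with 0 at an unadjusted p under 0.05 and a median log2 difference of 0.06. *Dpp6*, whose protein is a partner of Kv4 channels, averaged 65.5 ± 4.02 CPM in Sp9-OE LGE and 62.3 ± 8.50 CPM in controls, and its relative *Dpp10* 2.61 ± 0.393 CPM in Sp9-OE LGE and 3.96 ± 2.01 CPM in controls (SD, n = 3 each). *Ank3*, whose protein anchors ion channels at the axon initial segment, was at 304, 312 and 379 CPM in Sp9-OE LGE, against 342, 236 and 270 CPM in controls, with overlap through control 1. Control 1 was the highest library for 9 of these 20 genes.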

How the data were processed

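Total RNA libraries were made by the authors with a stranded, ribosomal RNA-depleting kit. The submitters' processing notes name the build mm10. For the aligner, the counting tool and its strand setting nothing is given in the sources used. The authors deposited 1 CPM value per gene and library, which were whole multiples of 1 read's worth within 0.0011 CPM in 100% of cases, so whole reads were recovered. Columns of the authors' own comparison (mean log2 CPM, log2 fold change and p-values) were not used. Replicates differed by more than sampling noise (chi-square 5.73 to 17.5 per degree of freedom). Exons of 21 members overlap another gene in GENCODE M21 (GRCm38), 20 on the opposite strand, *Kcnk1*, *Kcnk2* and *Kcnn1* among them, and their values are uncertain to that extent.

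Genes with 0.5 CPM in at least 3 libraries (15102) were fitted by limma 3.58.1 (R 4.3.3) with an intensity trend on log2(CPM + 0.5), on genotype alone. Tests were two-sided, and p-values were adjusted by Benjamini-Hochberg over these genes, with 0.05 as the threshold. Alternatives were edgeR 4.0.16 and DESeq2 1.42.0 on recovered reads, other filters, pseudocounts, scaling and threshold, the replicate block, each library left out, *Xist* as a covariate and control 3 alone. Members and lists were chosen with earlier results of these data known. Named members are *Kcnj8*, the 3 highest per length in each class, those with an unadjusted p under 0.05, those of at least 1 CPM without overlap and with an absolute log2 difference over 0.25, and those of at least 1 CPM whose highest library exceeds 2 times the median of the others. 1 voltage-gated member is not reported here by name and is not drawn, but stays in the counts. Other members are named as pathway examples or after their values were seen.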

Additional observations from a re-analysis of the deposited data

How the results depend on the processing

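The count of members past the adjusted threshold was 0 in all 17 alternatives run. Adjusted p values of the 16 members named by the rule were at least 0.256 in each. Members higher at an unadjusted p under 0.05 were 2 in the report, 2 to 12 with each library left out, 5 with the *Xist* covariate and 10 with control 3 alone. Members lower were 0 in the report, 0 to 4 with each library left out, 2 at a pseudocount of 1, 1 with the *Xist* covariate and 3 with control 3 alone. Over all 15102 genes, 376 to 2025 had an unadjusted p under 0.05 in either direction (limma) with each library left out. At a pseudocount of 1 there were 842. Voltage-gated members higher by value were 12 to 24 of 27 with each library left out, beside 49.3% to 51.6% of all genes. Without control 1, groups did not overlap in 32 of the 62 members, beside 34.2% of all genes. For the other libraries left out no share over all genes was computed, so those counts are not given. Fits against control 3 alone assume that this library varies like the others.

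Directions turned in 7 named members, whose differences in the report were -0.11 to 0.11. With each library left out, log2 differences ran from -0.0069 to 0.066 for *Kcnc1*, -0.35 to 0.25 for *Kcnip2*, -0.16 to 0.12 for *Kcnj11*, -0.061 to 0.23 for *Kcnj8*, -0.11 to 0.14 for *Kcnk1* and -0.047 to 0.043 for *Kcnk10*. With the *Xist* covariate they were -0.0090 for *Kcnh4*, 0.11 for *Kcnip2* and -0.060 for *Kcnk10*, with control 3 alone -0.0094, 0.11 and -0.058, and *Kcnj8* was at 0.45 and 0.44 and *Kcnj11* at 0.34 and 0.33 in these 2 fits. For *Kcnj11* edgeR gave -0.019 and DESeq2 -0.014. The cause was not tested. Deviations from the group means of same-numbered libraries correlated at -0.10, 0.20 and 0.08, beside -0.26 to 0.15 for differently numbered libraries. No clear pairing by the replicate numbers of the labels was seen. Deviations from a mean of 3 libraries depend on one another, so these values cannot settle whether libraries were paired. With the replicate number as a block, 0 members passed the adjusted threshold. At an unadjusted p under 0.05 (limma), 3 were higher and 1 was lower, beside 952 of all 15102 genes in either direction. Low members such as *Kcnk13*, with 16 to 54 reads, are limited by counting error.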
